A study of Homo sapiens with 6 samples.

Results

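The vacuolar H+-ATPase (V-ATPase) was followed in A549 lung adenocarcinoma cells through 10 genes, 8 that encode subunits of the pump and 2, ATP6AP1 and ATP6AP2, that encode its accessory proteins. They were taken by name from the 34957 genes of the deposited transcript tables, and ATP6AP1 was included for the height of its gene total after one siRNA. ATP6AP1 was thus chosen by its measured si-ctrl and si-PLANE.1 values, which are given as a description with no test. The tables held 100 transcripts of these 10 genes, 9 of them ATP6AP1 transcripts, among 180253 in all.

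A549 cells, an established line, had been transfected with a negative control siRNA (si-ctrl, replicates 1 and 2), with a first siRNA against the long noncoding RNA PLANE (si-PLANE.1, replicates 1 and 2) or with a second one (si-PLANE.2, replicates 3 and 4), and short-read RNA-seq was run on the 6 libraries. All groups share the A549 background and transient transfection with a lipid reagent, and the labels give no time of harvest. Nothing in the labels says that the 2 libraries of a group came from separate cultures, so p-values measure only the spread between libraries. PLANE was not analysed here, so the knockdown could not be checked in these libraries.

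The V-ATPase pumps protons into lysosomes, endosomes and secretory vesicles. Its V1 sector, on the cytosolic side, hydrolyses ATP and turns a rotor, and its V0 sector, in the membrane, uses that rotation to carry protons across. ATP6AP1 and ATP6AP2 are membrane proteins that associate with V0 and are known for their part in assembling the pump, and the acidic lumen it makes is needed for lysosomal degradation and for nutrient sensing at the lysosome.

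Library totals lay between 10572151 and 20778431 expected counts, with 3.03 to 3.62% of counts on transcripts without a gene ID. Of the 11 markers of A549 and lung epithelium, KRT8 and KRT18 were at 2712 FPKM (fragments per kilobase of transcript, scaled to library size) or more in every library, whereas KRT19 was at 0.76 to 5.38 FPKM and EPCAM at 2.59 to 26.5 FPKM. Of the 7 markers of other cell types, PTPRC of leukocytes was at 0.02 FPKM or below throughout, CD3E of T cells was at 0, CDH5 of endothelium was at 0.22 FPKM or below and COL3A1 of fibroblasts at 1.82 FPKM or below. COL1A1 and LUM, also of fibroblasts, were at 3.29 to 13.1 FPKM and 0.42 to 6.94 FPKM, both lowest in si-PLANE.2. CD68, a lysosomal glycoprotein used as a macrophage marker, had values of 34.6 and 27.8 FPKM in the controls, 39.6 and 18.3 after the first siRNA and 49.95 and 62.96 after the second, and the part of other cell types in the results was not tested. Both si-PLANE.2 libraries differed from the other 4 in content. The median of the 5 replication-dependent histone genes found in the tables was 0 and 0.2 FPKM in them, against 149 and 181 in the controls and 61.9 and 124 after the first siRNA. All 5 were lower than in si-ctrl after si-PLANE.2 by edgeR (4 by DESeq2), and 0 of the 5 were called after si-PLANE.1 by edgeR (4 at an unadjusted p under 0.05, 2 by DESeq2). The methods name both poly(A) selection and rRNA removal without saying which library had which, and a difference in library content cannot be told apart from an effect of the second siRNA. In bulk RNA, fewer expressing cells and less RNA per cell cannot be told apart either.

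ATP6AP1, encoded at GRCh37 chrX:153656979-153664862 on the plus strand (band Xq28), was the member with the lowest level per length in si-ctrl by its gene ID and the only one far from its control level after si-PLANE.1. Its gene total was 16.6 and 22.2 expected counts in si-ctrl, 623 and 464 in si-PLANE.1, and 3.97 and 11.9 in si-PLANE.2. As CPM, counts scaled to the library total, these were 1.21 and 1.55 in si-ctrl, 56.2 and 43.9 in si-PLANE.1, and 0.191 and 0.648 in si-PLANE.2. Both si-PLANE.1 libraries lay far above both control libraries, with a ratio of the means of 36.2, and both si-PLANE.2 libraries lay below them. The limit that a count of 0 allows, 3 counts, is 0.144 CPM in si-PLANE.2 replicate 3, whose total lay close to it, and 0.164 CPM in replicate 4, whose total lay above it.

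Nearly all of the difference between si-PLANE.1 and si-ctrl lay in a single transcript. ENST00000369762 (protein coding, 2099 bases) had 0.13 and 9.63 expected counts in si-ctrl, 619 and 458 in si-PLANE.1, and 0 in both si-PLANE.2 libraries. It made up 99.4 and 98.7% of the gene's counts in si-PLANE.1. ENST00000484908 (annotated with no defined coding sequence, 566 bases) had 16.4 and 12.5 counts in si-ctrl, 3.92 and 6.07 in si-PLANE.1, and 3.97 and 1.46 in si-PLANE.2, so in si-ctrl the gene total rested on this short transcript more than on the coding one. ENST00000455205 (subject to nonsense-mediated decay by annotation) and ENST00000491569 (a retained intron) had 7.47 and 2.92 counts in si-PLANE.2 replicate 4 and 0 in the other libraries. The other 5 transcripts, ENST00000422890, ENST00000429585, ENST00000439372, ENST00000446552 and ENST00000449556, were listed at 0 in all 6 libraries.

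The tables also held a transcript of the same length as ENST00000369762 to which they gave no gene ID, and its counts moved the opposite way. ENST00000594478 (2099 bases) had 1326.82 and 1273.65 expected counts in si-ctrl, 619.44 and 458.27 in si-PLANE.1, and 3718.64 and 3282.99 in si-PLANE.2. In both si-PLANE.1 libraries its count equalled that of ENST00000369762 to 2 decimals, 619.44 and 458.27. Of the counts on the pair, 50% carried the gene ID of ATP6AP1 in each si-PLANE.1 library, against 0.01 and 0.75% in si-ctrl and 0% in si-PLANE.2. The reference annotation used here has no entry for ENST00000594478, so its locus was not checked, and it is linked to ATP6AP1 here by equal length and equal counts only.

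With ENST00000594478 added, the difference between si-PLANE.1 and si-ctrl was within the spread between libraries. The sum was 98.5 and 90.8 CPM in si-ctrl (94.6 ± 5.40, SD, n = 2), 112 and 87.3 CPM in si-PLANE.1 (99.7 ± 17.5) and 179 and 180 CPM in si-PLANE.2 (180 ± 0.755). The si-ctrl values thus lay between the 2 si-PLANE.1 values, and the ratio of the means was 1.05 in place of 36.2. For si-PLANE.2 the ratio was 1.90, where the gene ID alone gave 0.303, so the direction turned. As sums of FPKM the same totals were 56.5 and 51.5 in the controls, 61.6 and 48.8 with the first siRNA, and 96.4 and 96.7 with the second. The addition was chosen after the values had been seen. How the counting step treated entries of equal length is not given in the sources used here, and its part in these values was not tested.

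**Figure D1:**
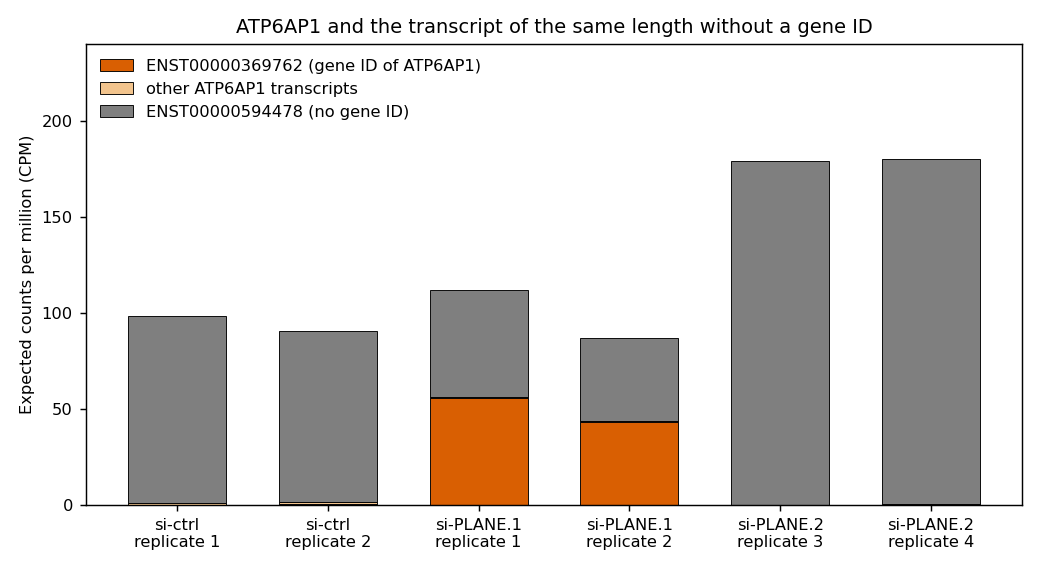
Stacked expected counts in CPM (y axis) of ENST00000369762, the other ATP6AP1 transcripts and ENST00000594478, which has no gene ID, in each of the 6 libraries (x axis). The whole bars of si-ctrl and si-PLANE.1 lie between 87.3 and 112 CPM, the ATP6AP1 part is large in si-PLANE.1 alone, and both si-PLANE.2 bars reach 179 CPM or more with nearly no ATP6AP1 part.

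Such matched entries were frequent in the tables. Of 16723 transcripts without a gene ID, 2271 had the same length and, at 10 counts or more in at least 1 library, the same count to 2 decimals as a transcript with one, and 596 genes had such a partner. ATP6AP1 was the only one of the 10 members among them. Over 546 pairs with 50 or more counts on the pair in every library, 531 were split equally (within 0.05 percentage points) in all 6 libraries. Because a match required an equal count in at least 1 library, entries split unevenly in every library are not among these pairs, and the share split equally is fixed in part by that rule. Limits set after the split of ATP6AP1 had been seen, under 5% of the counts on the gene ID in both si-ctrl libraries and over 40% in both si-PLANE.1 libraries, were met by its pair alone, which is a description and supports nothing. ENST00000484908 also had a partner, ENST00000596090, of equal counts in all 6 libraries. With it and the entries matched to ENST00000491569 and, by length only, to ENST00000455205, the totals were 107 and 99.6 CPM in si-ctrl, 121 and 94.0 CPM in si-PLANE.1 and 185 CPM on average in si-PLANE.2.

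The other 9 members had no such partner. Per length, their order in si-ctrl was ATP6V0C (155 FPKM), ATP6AP2 (76.4 FPKM), ATP6V0D1 (66.9 FPKM), ATP6V0E1 (65.3 FPKM), ATP6V1E1 (62.3 FPKM), ATP6V1A (33.2 FPKM), ATP6V1B2 (22.7 FPKM), ATP6V1D (22.4 FPKM) and ATP6V1H (9.66 FPKM). ATP6V0D1, ATP6V0E1 and ATP6V1E1 overlapped with their neighbours in this order, as did ATP6V1B2 with ATP6V1D, whereas the other neighbours were separated in both libraries. ATP6AP1 stood last by its gene ID, at 3.50 FPKM, and at 54.0 FPKM with ENST00000594478 it would stand between ATP6V1E1, with which it overlaps, and ATP6V1A.

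No call is read for ATP6AP1 after si-PLANE.1, since those values chose it, and none of the 9 remaining members was called. Gene totals were compared with edgeR's quasi-likelihood test with Benjamini-Hochberg adjustment over all genes tested, and 0 of the 9 had an adjusted p under 0.05 (0 of 9 also at an unadjusted p under 0.05). The background is low, since 0.0344% of 14535 genes were called (5 genes, and 124 with DESeq2, which called 0 of the 9 as well). Log2 fold changes ran from -0.16 for ATP6V0C to 0.20 for ATP6V0D1 and ATP6V1H, with a median of 0.06 against 0.00 over all genes. In CPM, both si-PLANE.1 libraries lay above both si-ctrl libraries for 4 of the 9, ATP6AP2, ATP6V1B2, ATP6V1D and ATP6V1H, where 30.1% of all genes did, and 0 of the 9 lay below, as 13.6% of all genes did. The standard errors of 0.11 to 0.18 leave room for differences of that size and larger in either direction.

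After si-PLANE.2, 8 of the 9 members rose in the same test and ATP6V1A did not pass it. The background is high, since 64.1% of 14168 genes were called, 31.8% as higher and 32.3% as lower. The median log2 fold change of the 9 was 0.80, against -0.03 over all genes tested. Both si-PLANE.2 libraries lay above both si-ctrl libraries in CPM for the same 8 genes, as they did for 34.2% of all genes. The fit rescales the libraries by TMM, so its folds exceed the plain ratios of CPM. Since the si-PLANE.2 libraries also stood apart in histone RNA, the part of library content in these values was not tested.

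Among the V0 subunits, ATP6V0C (chr16:2563953-2570219), the proteolipid that forms the proton-carrying ring, had 107 and 105.5 CPM in si-ctrl, 109 and 93.9 in si-PLANE.1, and 176 and 180 in si-PLANE.2. The si-PLANE.2 libraries lay above the other 4, and the log2 fold change was 0.92 ± 0.09 (SE, adjusted p = 9.5e-05 in edgeR). Other genes overlap ATP6V0C on the same strand, so part of its reads is uncertain, and its processed pseudogenes were listed at 0. ATP6V0D1 (chr16:67471917-67515084), which couples the rotor to the ring, had 46.3 and 39.0 CPM in si-ctrl, 61.9 and 42.8 in si-PLANE.1, and 90.4 and 95.01 in si-PLANE.2. Its si-PLANE.1 libraries were spread more widely than those of any other of the 9 members, and after si-PLANE.2 its log2 fold change was 1.30 ± 0.11 (adjusted p = 5.5e-05 in edgeR). ATP6V0E1 (chr5:172410774-172462448), a small membrane subunit, had 65.6 and 51.4 CPM in si-ctrl, 69.3 and 60.5 in si-PLANE.1, and 138 and 123 in si-PLANE.2. Its groups overlapped for si-PLANE.1 only, and its log2 fold change after si-PLANE.2 was 1.33 ± 0.13 (adjusted p = 9.2e-05 in edgeR). The small RNA gene SNORA74B and a processed pseudogene overlap ATP6V0E1 on the same strand, so part of its reads is uncertain too.

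Among the V1 subunits, ATP6V1H (chr8:54628103-54756118), a regulatory subunit that links V1 to V0, had the highest log2 fold change of counts after si-PLANE.2. ATP6V1A had the lowest, both in edgeR. In summed FPKM they were again the highest and lowest, but ATP6V1A changed sign (log2 1.23 and -0.50 in limma). ATP6V1H had 17.1 and 15.4 CPM in si-ctrl, 18.8 and 20.7 in si-PLANE.1, and 42.4 and 41.2 in si-PLANE.2, a 2.91-fold rise in the fit (log2 1.54 ± 0.11, adjusted p = 2.9e-05 in edgeR). ATP6V1A (chr3:113465617-113530903), the catalytic subunit, had 75.4 and 65.9 CPM in si-ctrl, 72.2 and 79.5 in si-PLANE.1, and 68.2 and 75.1 in si-PLANE.2. All 3 groups overlapped, and its log2 fold change after si-PLANE.2 was 0.20 ± 0.11 (adjusted p = 0.14 in edgeR). Without si-ctrl replicate 1 the same log2 fold change was 0.28, given without a test. A long noncoding RNA overlaps ATP6V1A on the opposite strand, and reads from the overlap cannot be assigned without strand.

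ATP6V1B2 (chr8:20054892-20084330), the noncatalytic partner of ATP6V1A in the ATP-hydrolysing ring, had 56.7 and 54.9 CPM in si-ctrl, 65.4 and 66.5 in si-PLANE.1, and 71.4 and 71.3 in si-PLANE.2. The 3 groups did not overlap, but only the second difference from si-ctrl passed the test (log2 0.53 ± 0.10, adjusted p = 0.0019 in edgeR). ATP6V1E1 (chr22:18074902-18111515), of the peripheral stalk, had 62.3 and 48.9 CPM in si-ctrl, 55.2 and 52.3 in si-PLANE.1, and 86.1 and 84.6 in si-PLANE.2 (log2 0.80 ± 0.12, adjusted p = 0.00092 in edgeR). ATP6V1D (chr14:67761088-67826982), of the central rotor, had 29.5 and 28.8 CPM in si-ctrl, 33.2 and 29.98 in si-PLANE.1, and 45.8 and 38.8 in si-PLANE.2 (log2 0.71 ± 0.12, adjusted p = 0.0014 in edgeR). ATP6V1D overlaps PALS1, which lies on the opposite strand, and reads from the overlap cannot be assigned without strand. The accessory protein ATP6AP2 (chrX:40438624-40466100), also known as the prorenin receptor, had 106 and 99.2 CPM in si-ctrl, 119 and 113 in si-PLANE.1, and 135 and 131 in si-PLANE.2 (log2 0.55 ± 0.09, adjusted p = 0.0013 in edgeR). Both siRNAs gave ATP6AP2 levels above both controls, and only the second passed the test.

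**Figure D2:**
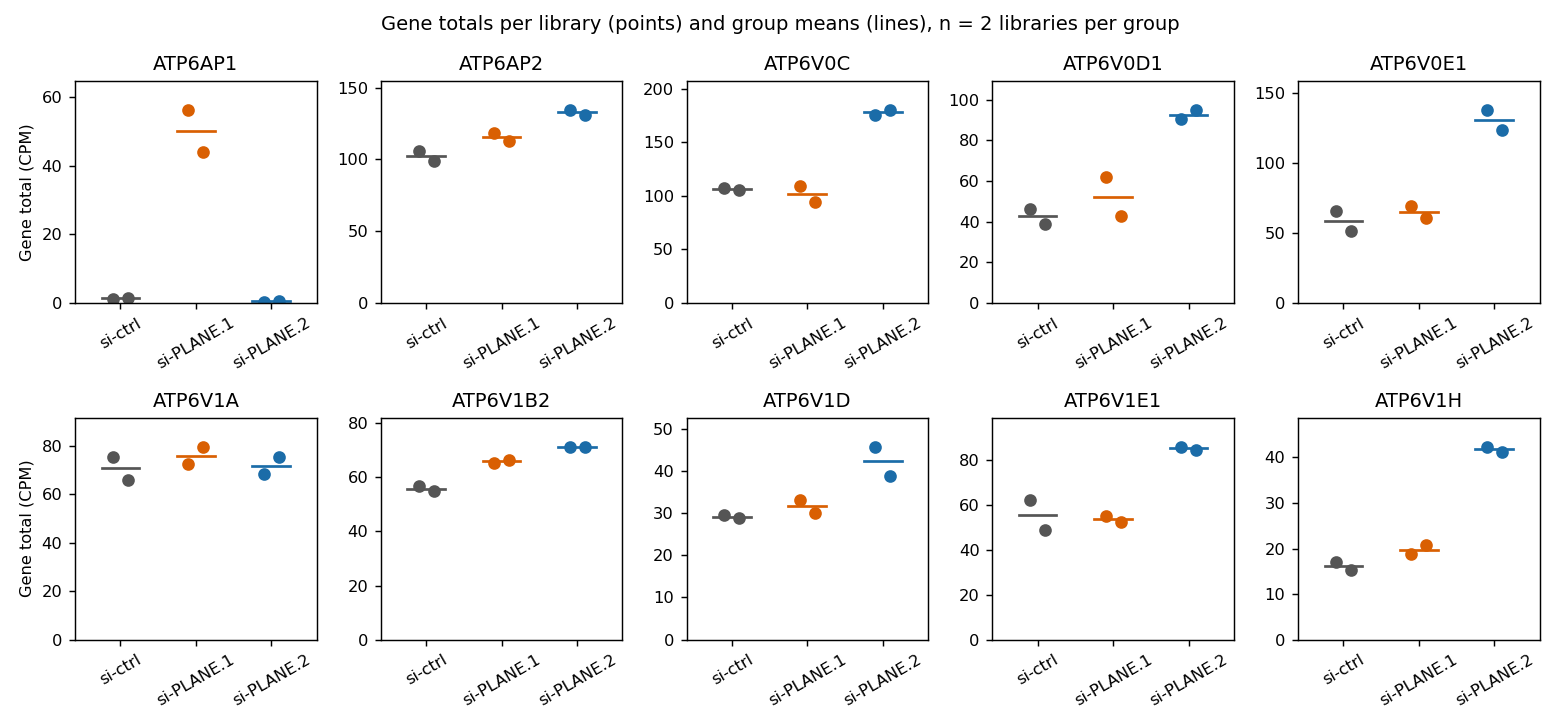
Gene totals in CPM (y axis, from 0 in each panel) of the 10 genes in si-ctrl, si-PLANE.1 and si-PLANE.2, with a point for each library and a line for the mean of 2 libraries. ATP6AP1 by its gene ID is at 43.9 and 56.2 CPM in si-PLANE.1 and under 2 CPM elsewhere, while the si-PLANE.2 points lie above the si-ctrl points for every other gene except ATP6V1A.

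The difference between the 2 siRNAs was tested directly in a fit of all 6 libraries, chosen after the data had been seen. Of the 9 members, 8 were higher with si-PLANE.2 than with si-PLANE.1 (adjusted p of at most 0.0066 in edgeR), by log2 differences of 0.38 for ATP6V1B2 to 1.35 for ATP6V1H. ATP6V1A was the exception, at 0.19 (adjusted p = 0.18 in edgeR). The same test called 64.4% of 14440 genes in either direction, and 4485 of the 14440 as higher with si-PLANE.2. Histone RNA also set the si-PLANE.2 libraries apart from those of si-PLANE.1. A difference between the siRNAs and a difference in library content thus cannot be told apart here.

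The direction after si-PLANE.2 depended on the unit for 3 of the 9 members. As sums of FPKM over transcripts, ATP6V0D1 had 74.0 and 59.8 FPKM in the controls against 64.7 and 68.2 after the second siRNA, so the groups overlapped where the counts were 2.46-fold apart in the fit. The values of ATP6AP2 were 75.9 and 76.9 FPKM in the controls and 76.9 and 75.3 FPKM with si-PLANE.2. ATP6V1A was lower, with 34.1 and 32.2 FPKM in the controls against 20.2 and 26.3 FPKM with si-PLANE.2. With limma on log2(FPKM + 1), 57.2% of all genes were called, 21.2% as higher and 36.0% as lower, and 4 of the 9 members were called higher (ATP6V0C, ATP6V0E1, ATP6V1D and ATP6V1H) and ATP6V1A lower (log2 -0.50 ± 0.15, adjusted p = 0.035). This scale moved the median of all genes to -0.22. Relative to that median, 8 of the 9 were above 0 and ATP6V1A was at -0.28, with a median of 0.49 for the 9.

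**Figure D3:**
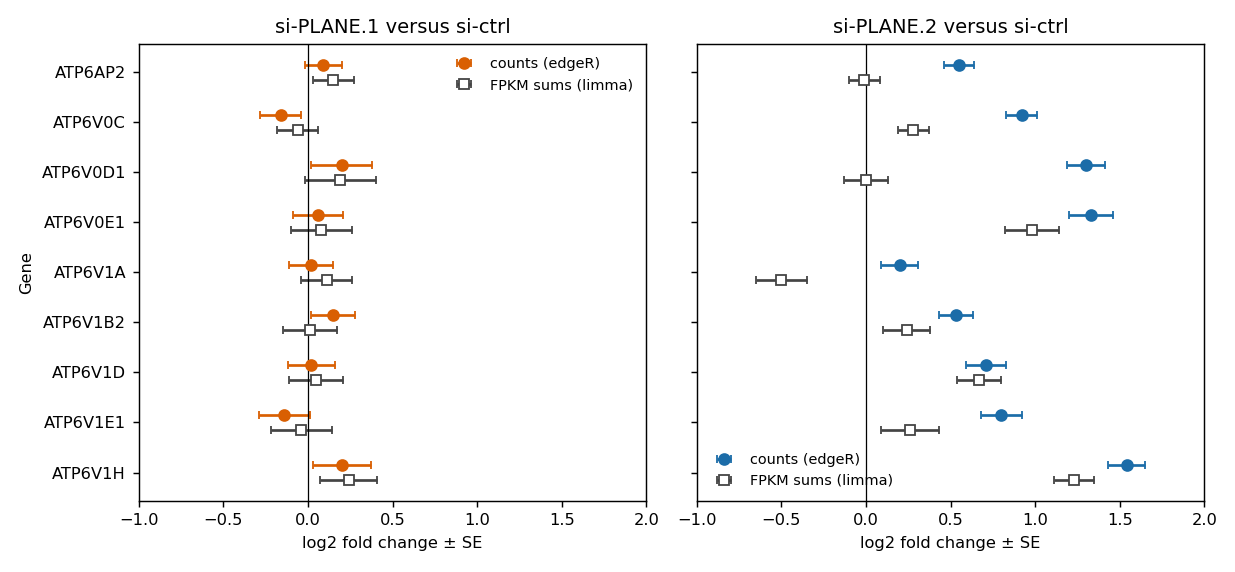
Log2 fold change with its standard error (x axis) of the 9 members other than ATP6AP1 (y axis), from gene counts in edgeR (filled circles) and from summed FPKM in limma (open squares), for each siRNA against si-ctrl. After si-PLANE.1 the values lie between -0.16 and 0.24, and after si-PLANE.2 the FPKM values lie below the count values for all 9 genes.

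The transcripts behind these totals differed between the libraries as well. In expected counts, ENST00000330398 (1175 bases) of ATP6V0C held 73.2 and 69.4% of the gene in si-ctrl, 76.2 and 64.2% in si-PLANE.1, and 99.9 and 100% in si-PLANE.2. The rest was mostly ENST00000565223 (668 bases), with 392 and 455 counts in si-ctrl, 288 and 349 in si-PLANE.1, and 0 in both si-PLANE.2 libraries. ENST00000290949 (1716 bases) of ATP6V0D1 held 61.9 and 63.3% in si-ctrl, 58.2 and 64.2% in si-PLANE.1, and 95.9 and 95.5% in si-PLANE.2. Its short transcript ENST00000568101 (552 bases, nonsense-mediated decay by annotation) had 212 and 165 counts in si-ctrl, 180 and 123 in si-PLANE.1, and again 0 in both si-PLANE.2 libraries. These short transcripts carry much of the FPKM in si-ctrl, since a read on a short transcript weighs more per length. They were picked after their values had been seen.

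The most abundant transcript of ATP6AP2 (ENST00000378438) held 68.4 to 78.1% of the gene in the first 4 libraries and 95.5 and 93.7% in si-PLANE.2, a description with no test. For ATP6V1B2 (ENST00000276390) the share was 81.7 to 89.6% in the first 4 libraries and 98.2 and 97.1% in si-PLANE.2, and for ATP6V1E1 (ENST00000253413) it was 83.9 to 88.2% and then 98.1 and 97.2%. ATP6V1D (ENST00000216442) went the other way, with 90.3 to 95.2% and then 83.4 and 85.6%. ATP6V0E1 (ENST00000519374), ATP6V1A (ENST00000273398) and ATP6V1H (ENST00000359530) overlapped between the groups. The share in si-PLANE.2 was thus above all other libraries for 5 of the 9 members and below them for 1. Over 9657 genes with several transcripts and 5 CPM or more in each library, 37.2% were above, so 5 of 9 is not far from the background.

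**Figure D4:**
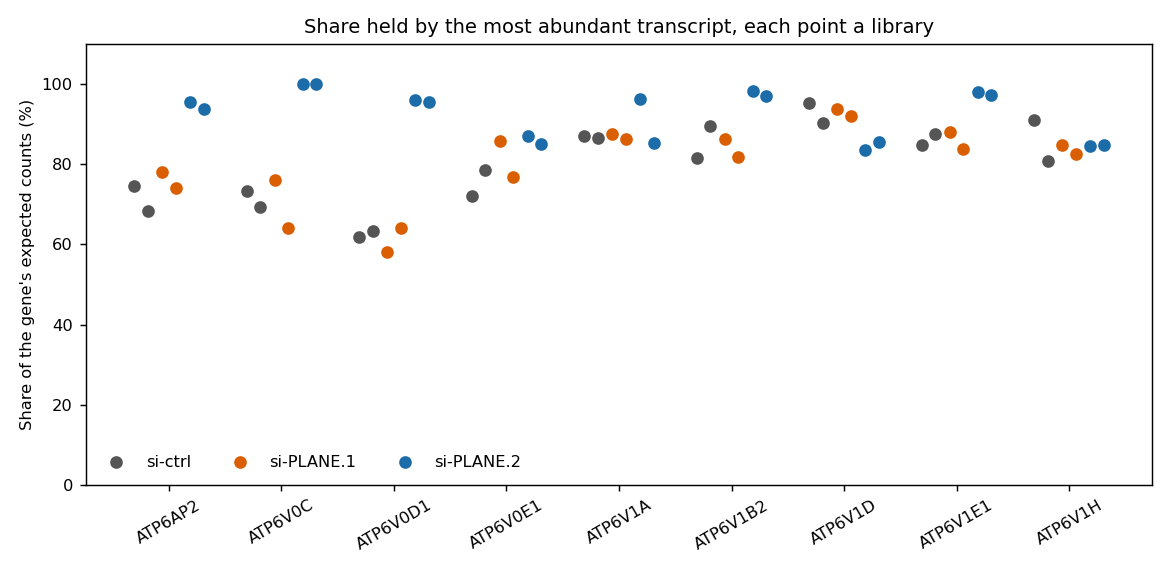
Percent of a gene's expected counts held by its most abundant transcript (y axis, from 0) for the 9 members other than ATP6AP1 (x axis), with a point for each library, coloured by group. The si-PLANE.2 points of ATP6AP2, ATP6V0C, ATP6V0D1, ATP6V1B2 and ATP6V1E1 lie above the others, at 93.7% or more, and those of ATP6V1D lie below.

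Of 15 further V-ATPase subunits, 10 passed the filter on low values, and after si-PLANE.1 0 were called (0 also at an unadjusted p under 0.05 and with DESeq2), ATP6V0A1 being at a log2 fold change of 0.24 and TCIRG1 at 0.06 (adjusted p = 0.59 and 0.89 in edgeR). After si-PLANE.2, 5 rose and 1 fell, with a median of 0.34, beside 31.8% of all genes called as higher and 32.3% as lower. ATP6V0B, a second proteolipid of the ring, rose most, from 13.6 to 80.2 CPM on average (6.66-fold, adjusted p = 4.1e-06 in edgeR), followed by ATP6V1G1 (1.89-fold) of the peripheral stalk and ATP6V1F (1.54-fold) of the central rotor. The genes for assembly and regulation of the pump differed in direction. Of 9 tested, 3 rose and 6 fell after si-PLANE.2, with a median of -0.67, beside the same shares of all genes. The largest changes were those of NCOA7 (log2 -1.34), DMXL1 (-1.33) and DMXL2 (-1.31), the last 2 being rabconnectin homologues that promote joining of V1 and V0. After si-PLANE.1, 0 of these 9 were called by edgeR or DESeq2 and 2 had an unadjusted p under 0.05, with DMXL2 at -0.01 and NCOA7 at -0.03.

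Around the pump, 10 of 15 genes of lysosomal nutrient sensing rose and 1 fell after si-PLANE.2, with a median of 0.67. The largest changes were in LAMTOR4 (6.02-fold), LAMTOR1 (2.96-fold) and LAMTOR2 (2.52-fold), parts of the Ragulator complex that holds the Rag GTPases at the lysosome. Of 12 lysosomal membrane proteins and ion channels, 6 rose and 2 fell, with a median of 0.34. CD63 rose 3.31-fold and the chloride-proton exchanger CLCN7 2.93-fold, whereas CLCN5 fell by 1.25 on the log2 scale. After si-PLANE.1, 0 of the 15 and 0 of the 12 were called by edgeR or DESeq2, with 1 each at an unadjusted p under 0.05. RRAGA (-0.002), TFE3 (-0.37), CD63 (-0.20) and TPCN1 (0.08) were the 2 most abundant of each list by mean CPM over all 6 libraries, with these log2 fold changes. TFE3 had 76.8 and 87.8 CPM in si-ctrl and 44.4 and 90.9 CPM in si-PLANE.1. In si-PLANE.1 replicate 1 its transcripts ENST00000315869 and ENST00000493583 shared their counts equally with partners without a gene ID (285.74 and 205.24 each). Those partners enter no gene total, so its value of -0.37 is uncertain. These counts after si-PLANE.2 stand beside 64.1% of all genes called, 31.8% as higher and 32.3% as lower, and no list was tested against that background.

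The genes next to ATP6AP1 at Xq28 were examined for the same partners. Of 14 listed, 13 were found by gene ID and 9 of these had a partner without one. After si-PLANE.1, 0 of the 13 were called by edgeR or DESeq2 (3 at an unadjusted p under 0.05), and FLNA, which encodes the actin cross-linker filamin A, had a log2 fold change of -0.44 (adjusted p = 0.45 in edgeR). After si-PLANE.2, 10 rose and 1 fell, with a median of 1.16, beside 31.8% of all genes called as higher and 32.3% as lower. RPL10 rose from 4.01 to 676 CPM on average, and since this ribosomal protein gene has many near-identical copies in the genome its counts are uncertain. DNASE1L1 rose from 0.404 to 4.03 CPM and LAGE3 from 6.45 to 35.4 CPM. For RPL10 the transcript with a gene ID (ENST00000436473) and its partner had equal counts in all 6 libraries, so the pair moved without a change of split. SLC10A3 had 6.89 and 6.69 CPM in si-ctrl and 33.3 and 32.6 CPM in si-PLANE.2, and its split did change. ENST00000263512 and ENST00000393587 equalled their partners in si-ctrl. In si-PLANE.2 they had 226.85 and 45.53, and 316.3 and 329.31 counts, against 0 on the partners. The part of this split in its gene total was not tested.

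By correlation of log2(FPKM + 1) over the 6 libraries, with 10182 genes of at least 5 FPKM on average compared, the genes most like ATP6AP1 by its gene ID were ETS2, PIEZO2, UPF2, PHF14 and ORMDL1 (Pearson's r of 0.997 to 0.994, a description over libraries that share depth and group). Their ranges were far narrower. ETS2, for example, had 20.5 and 19.2 FPKM in the controls, 31.7 and 28.4 with the first siRNA, and 15.3 and 14.9 with the second. None of the 5 had a partner without a gene ID.

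Many lysosomal genes carry in their promoters the CLEAR element, a site for the transcription factor TFEB with the core TCACGTGA around the E-box CACGTG. RefSeq promoters (GRCh38.p14, 250 bases before to 50 after a start) were matched for 6 of the 10 members, 8 promoters in all. The core was searched on both strands, where it reads the same, and each match to it also counts as a match to the E-box. Of these 8 promoters, that of ATP6V0D1 alone held the core, where 0.98% of 35116 promoters hold it and 7.26% hold the E-box. The promoter of ATP6V0D1, at chr16:67481108-67481407 on the minus strand, is shown with the core in capitals, and that of ATP6AP1, at chrX:154428427-154428726 on the plus strand, is shown as the member without a match on which the comparison of transcripts turned.
ATP6V0D1: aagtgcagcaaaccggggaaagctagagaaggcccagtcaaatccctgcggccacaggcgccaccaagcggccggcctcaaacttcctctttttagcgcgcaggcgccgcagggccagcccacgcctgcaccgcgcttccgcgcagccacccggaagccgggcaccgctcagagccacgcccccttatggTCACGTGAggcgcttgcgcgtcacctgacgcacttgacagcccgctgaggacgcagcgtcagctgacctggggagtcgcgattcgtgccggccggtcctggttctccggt
ATP6AP1: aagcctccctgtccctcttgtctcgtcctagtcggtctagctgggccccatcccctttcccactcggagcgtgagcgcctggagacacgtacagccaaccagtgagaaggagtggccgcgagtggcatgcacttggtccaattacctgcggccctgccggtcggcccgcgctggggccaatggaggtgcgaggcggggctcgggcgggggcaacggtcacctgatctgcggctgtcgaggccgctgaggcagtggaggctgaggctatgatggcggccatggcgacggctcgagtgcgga
The core begins 60 bases before the start of ATP6V0D1 (position -60). ATP6V0D1 was among the members that rose in counts after si-PLANE.2 and did not pass the test in FPKM, and no match in a window says only that these letters are not in it.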

How the data were processed

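RNA-seq of 6 A549 libraries was read from 2 deposited tables of expected counts and FPKM per transcript, whose si-ctrl columns are identical. Per the labels, the submitters' processing notes name build hg19, Trimmomatic 0.30, HISAT2 2.0.1, HTSeq 0.6.1 and DESeq. The tool that produced the authors' expected counts is not given in the sources used here, nor is strand. FPKM were deposited by the authors and are scaled by transcript length and library size, and transcripts without a gene ID (16723) enter no gene total.

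Expected counts were summed per gene and rounded, and genes with a mean of at least 0.5 FPKM in the 4 libraries of a comparison were tested (edgeR 4.0.16, glmQLFit and glmQLFTest, TMM, Benjamini-Hochberg, adjusted p under 0.05), checked on simulated data. DESeq2 1.42.0 and limma 3.58.1 were alternatives. CPM are expected counts over the library total. Coordinates and transcript names are from GENCODE 44 lifted to GRCh37, the assembly of hg19. The 10 members, every ATP6AP1 transcript, the most abundant transcript of each other member, and up to 3 genes per list (those with the largest change among those called, otherwise the 2 most abundant) were named, apart from an item that is not reported here. Members and lists were chosen with earlier results of these data known. With 2 libraries per group precision is limited, and intervals of counting error are not given.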

Additional observations from a re-analysis of the deposited data

Results flagged for a closer look

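For 8 members the si-PLANE.2 and si-PLANE.1 libraries differed, by the test of the difference in the fit of all 6 libraries. Library content differed between these groups as well and cannot be told apart from an effect of the siRNA. The log2 differences, si-PLANE.2 minus si-PLANE.1, were 0.47 for ATP6AP2, 1.08 for ATP6V0C, 1.10 for ATP6V0D1, 1.28 for ATP6V0E1, 0.38 for ATP6V1B2, 0.69 for ATP6V1D, 0.94 for ATP6V1E1 and 1.35 for ATP6V1H. That test called 64.4% of all genes in either direction, and 4485 of 14440 as higher with si-PLANE.2. The transcript ENST00000594478, which has no gene ID and enters no gene total, had a mean of 179 CPM in si-PLANE.2 against 93.3 CPM in si-ctrl and 49.6 CPM in si-PLANE.1. Its locus was not checked.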

How the results depend on the processing

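For ATP6AP1 after si-PLANE.1 the log2 ratio of the mean gene totals, 5.18 in CPM, was 3.02 as a sum of FPKM, 7.18 over protein-coding transcripts only, 0.07 with ENST00000594478, 0.06 with all transcripts of matching length and 0.03 as a sum of FPKM with ENST00000594478. In the fits with ENST00000594478 added, its log2 fold change of 5.06 for si-PLANE.1 turned to -0.02, and that of -1.56 for si-PLANE.2 to 1.10. That setting adds only the counts of this transcript, and the cause of the uneven split was not tested. By gene ID alone, the si-PLANE.2 value of ATP6AP1 ran from -2.64 without replicate 4 to -0.91 without replicate 3. For the other 9 members after si-PLANE.1, 0 were called under every alternative run, the replicate block included, although signs turned. ATP6V0C was at 0.02 and ATP6V1E1 at 0.04 in limma on log2(TPM + 1), where the median of all genes was 0.15, and with a library left out the log2 fold change ran from -0.05 to 0.42 for ATP6V0D1, -0.09 to 0.23 for ATP6V0E1, -0.09 to 0.12 for ATP6V1A, -0.02 to 0.06 for ATP6V1D and -0.28 to 0.03 for ATP6V1E1.

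After si-PLANE.2 the 8 calls, all higher, became 5 in limma on log2(FPKM + 1), 5 on log2(FPKM + 0.1) and 4 on log2(TPM + 1). ATP6V1A was called lower on each of these scales and is part of those counts. Of all 14168 genes tested, the scales called 3006, 2974 and 2315 as higher and 5105, 5085 and 5776 as lower, in that order. On those 3 scales, in that order, ATP6AP2 turned to -0.01, -0.01 and -0.16, ATP6V0D1 to -0.0022, -0.0021 and -0.16, and ATP6V1A to -0.50, -0.52 and -0.66, while the median of all genes was -0.22, -0.27 and -0.37. Relative to that median ATP6V1A alone stayed below 0. The cause was not tested. DESeq2, the other scalings, the filters, the fit of all 6 libraries and the most abundant transcript left the count of calls within 1.5 times of 8. The background stayed high, with 8189 of 14168 genes called by DESeq2 and 7172 of 13340 by the most abundant transcript. The control and si-PLANE.1 libraries carry the same replicate numbers, which the labels tie to no batch or culture. Their replicate differences correlated at r = 0.27 across 14440 genes. The replicate block moved the calls over all genes from 5 to 1225 and those of the 9 members not at all (0). That fit leaves very few degrees of freedom in 4 libraries, and the part of this in the rise of calls was not tested.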

Other observations

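Unequal splits of matched transcripts were also seen in 2 genes of the lists, given as values. TFE3, a transcription factor of lysosomal genes, had 733.97 and 941.65 counts on ENST00000315869 in si-ctrl, 285.74 and 678.55 in si-PLANE.1, and 1977.02 and 1470.98 in si-PLANE.2. Its partner without a gene ID, ENST00000601543, had 285.74 counts in si-PLANE.1 replicate 1, equal to ENST00000315869 there, and 7.04 or fewer in every other library. ENST00000493583 of TFE3 and its partner ENST00000599758 had 205.24 counts each in si-PLANE.1 replicate 1. In si-PLANE.2 replicate 4 they had 292.8 and 461.0, and elsewhere the partner had 1.81 or fewer. SLC10A3, a neighbour of ATP6AP1, had equal counts on ENST00000263512 and ENST00000593627 in si-ctrl and si-PLANE.1 (12.96 to 46.02), but 226.85 and 45.53 counts against 0 in si-PLANE.2.

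Within ATP6V1A, ENST00000470455 and ENST00000538620, both of 2266 bases and both with its gene ID, had equal counts in all 6 libraries, with 66.99 each in si-PLANE.2 replicate 4 and 3.80 or fewer elsewhere.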
